A study of Homo sapiens with 6 samples.

Results

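The cyclin-dependent kinase (CDK) inhibitor genes and the CDKN2A locus were followed as a group of 8 genes among the 58884 Ensembl genes of the count table. The group holds CDKN1A, CDKN1B and CDKN1C of the CIP/KIP family, CDKN2A, CDKN2B, CDKN2C and CDKN2D of the INK4 family, and MTAP, the neighbour of CDKN2A on chromosome 9. The genes were picked by name, and the choice was made with their parental and mutant values in view, so the comparison of these 8 genes between the conditions is a description and carries no test. All 8 genes passed the filter on low counts.

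The study asked which genes respond when p85β, a regulatory subunit of PI3K encoded by PIK3R2, can no longer enter the nucleus. RNA-seq was made from DLD1 parental cells, a human colorectal cancer cell line whose PIK3CA carries a helical domain mutation, and from DLD1 cells with K477A/R478A in p85β, named p85β KR-AA cells here, with 3 libraries per condition. The changes were knocked into the endogenous gene in independently derived clones, and the labels do not say which clone gave which library or whether the libraries came from separate cultures, so the spread between libraries may be technical. The sample titles give K477A/R478A for all mutant libraries, whereas the source names of replicates 2 and 3 give R479A and R480A for the second residue. The counts hold no bases that could show the knock-in, and PIK3R2 itself was estimated at 524, 169 and 313 counts for parental replicates 1 to 3 and at 503, 476 and 125 counts for the mutant replicates, values made uncertain by a readthrough gene that covers it on the same strand.

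CDK inhibitors are small proteins that hold the cell cycle in G1. INK4 proteins bind CDK4 and CDK6 and keep them from their D-type cyclins, whereas CIP/KIP proteins bind CDK2 complexes with cyclin E or A, and both brakes keep the RB protein active against E2F factors. CDKN2A gives rise to p16INK4a and, from an outer first exon read in another frame, to ARF, which restrains MDM2; in many cells the locus is kept silent by Polycomb group proteins, and in colorectal cancers it is often methylated.

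CDKN2A lies at chr9:21967751-21995300 on the minus strand (GRCh37, GENCODE release 44 lifted to that build), CDKN2B at chr9:22002902-22009304 on the same strand, and MTAP at chr9:21802635-21937650 on the plus strand. The annotation gives CDKN2A 14 transcripts. The first exon of the ARF transcript (chr9:21994138-21994391) and that of the p16INK4a transcript (chr9:21974677-21974856) are 19.3 kb apart, and both transcripts share exon 2 (chr9:21970901-21971207) and exon 3 (chr9:21967751-21968241). A gene-level count therefore adds up both products, and p16INK4a and ARF could not be told apart. The library kit does not mark strand, and 593 of 3885 exonic bases of CDKN2A (15.3%) are also exonic in the antisense RNA CDKN2B-AS1, against 0 of 4000 for CDKN2B. CDKN2B-AS1 was given between 2.30 and 9 counts per library, and CDKN2A-DT was at 0 in all 6.

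The stretches before the starts of the 3 genes on chromosome 9 are shown because these genes share a neighbourhood and CDKN2A differed from the other two between the conditions. Each line holds the first 200 of the 250 bases before a RefSeq start (GRCh38.p14), written 5′ to 3′ on the strand of the gene, with GC boxes (GGGCGG on either strand, the letters bound by Sp1-type factors) in capitals.
CDKN2A (outer start, chr9:21995375-21995574, minus strand): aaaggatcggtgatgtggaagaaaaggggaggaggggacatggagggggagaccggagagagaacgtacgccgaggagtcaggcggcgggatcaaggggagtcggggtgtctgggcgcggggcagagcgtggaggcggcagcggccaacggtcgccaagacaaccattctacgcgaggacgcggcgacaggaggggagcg
CDKN2B (chr9:22009356-22009555, minus strand): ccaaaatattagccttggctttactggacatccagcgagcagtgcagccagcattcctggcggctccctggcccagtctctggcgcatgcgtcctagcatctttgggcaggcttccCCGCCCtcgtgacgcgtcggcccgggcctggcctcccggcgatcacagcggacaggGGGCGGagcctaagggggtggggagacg
MTAP (chr9:21802386-21802585, plus strand): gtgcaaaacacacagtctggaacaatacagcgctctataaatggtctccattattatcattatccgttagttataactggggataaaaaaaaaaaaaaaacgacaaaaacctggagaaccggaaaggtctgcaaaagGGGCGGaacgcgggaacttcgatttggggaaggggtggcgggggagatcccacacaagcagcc

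The 250 bases before the outer start of CDKN2A held 24 CpG pairs, a GC content of 66.8% and 0 GC boxes. Those before CDKN2B held 18 CpG pairs and 2 GC boxes, and those before MTAP 11 CpG pairs and 2 GC boxes. The window before the inner start of CDKN2A, from which p16INK4a is made, held 20 CpG pairs and 1 GC box. Of 35116 RefSeq windows of the same length, 42.6% held at least 1 GC box, the median number of CpG pairs was 11 and the median GC content 58.0%, so the CDKN2A and CDKN2B windows were richer in CpG pairs than the median window and the MTAP window was at the median. Letters of an E2F-type site (TTTCCCGC, TTTGGCGC, TTTCGCGC or TTTGCCGC, either strand) were in none of the 10 windows matched to 7 of the 8 genes and in 2.79% of all windows. No window was matched to CDKN1C.

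The libraries held between 20301396 and 26712816 counts. Counts were scaled to CPM (counts per 1000000) on library sizes normalized with edgeR's TMM method. The detection limit was set at 3 counts, worth 0.0818 to 0.218 CPM depending on the library, and covers counting error only. The conditions stood far apart throughout: of 16059 genes tested with edgeR's quasi-likelihood test, 28.6% were called higher and 17.6% lower in p85β KR-AA cells (3-fold or more, adjusted p below 0.01), and the CPM values of 83.4% did not overlap between the conditions. Changes also ran with gene length, since the median log2 fold change was -1.12 for 1593 genes of up to 1000 bases and 1.65 for 4956 genes longer than 4000 bases. Of 11 tested colon epithelial marker genes of a list of 12, 3 were called higher (CDH1, CDH17 and CEACAM5) and 6 lower. The summed CPM of the list was 57231 to 79262 in parental and 8831 to 10335 in p85β KR-AA libraries. Most of this sum came from KRT8, KRT18 and KRT19, with parental means of 37381, 18441 and 11444 CPM, so it says little about the other markers. Of 8 tested mesenchymal marker genes of a list of 12, 6 were called higher and 0 lower, and the summed CPM of the list was 7.72 to 10.5 in parental and 6312 to 7228 in p85β KR-AA libraries; COL3A1, PDGFRA and ZEB1 were at 0 in every parental library, and COL1A2 and PDGFRA in every p85β KR-AA library. The 6 blood markers summed to at most 0.374 CPM. These differences moved with every comparison below, and their part in it was not tested.

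Of the 8 genes, 0 were called higher and 3 lower in p85β KR-AA cells (CDKN2A, CDKN2C and CDKN2D), and 5 were not called, beside the 28.6% and 17.6% of all genes tested. The CPM values of 7 of the 8 did not overlap between the conditions, beside 83.4% of all genes tested. Because these genes were chosen on this contrast, nothing is read from the counts. CDKN1C, with a log2 fold change of -1.42, lay closest outside the 3-fold limit of 1.58 on the log2 scale, and CDKN2C, with -1.76, lay closest inside it.

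**Figure D1:**
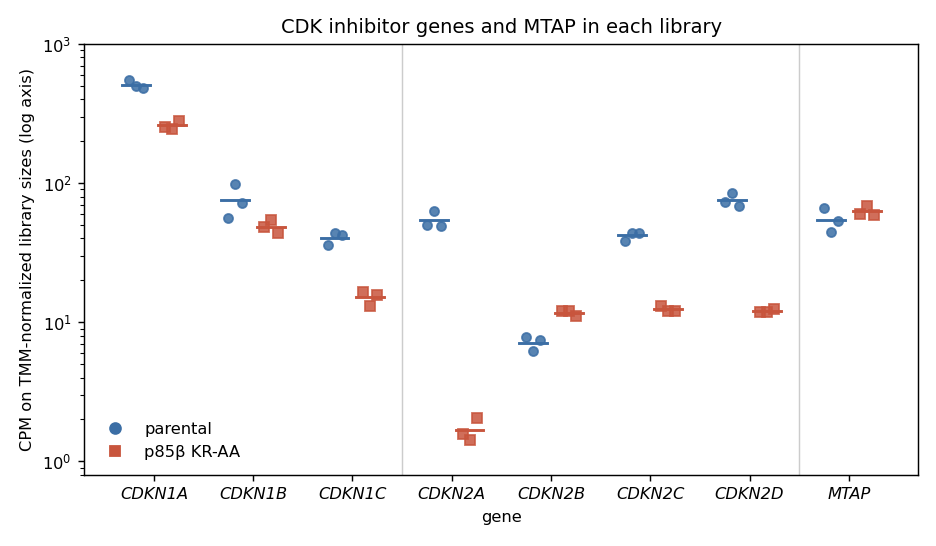
CPM on TMM-normalized library sizes (log axis) of the 8 genes in each library, with parental libraries as circles, p85β KR-AA libraries as squares and the mean of 3 libraries as a bar. CDKN2A shows the widest gap, from 49.4 to 62.6 CPM in parental libraries down to 1.42 to 2.04 CPM in p85β KR-AA libraries, whereas the MTAP values overlap.

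The INK4 gene CDKN2A showed the widest difference of the group. Its estimated counts were 756, 860 and 800.0 in parental libraries but 58, 40.6 and 56.0 in p85β KR-AA libraries. In CPM these were 50.2, 62.6 and 49.4 against 1.58, 1.42 and 2.04. The lowest parental library thus lay far above the highest mutant library, and the mutant values were several times above the 3-count limit, so that CDKN2A RNA was reduced but still detected. Parental cells averaged 54.1 ± 7.43 CPM (SD, n = 3) and mutant cells 1.68 ± 0.323 CPM (SD, n = 3). The log2 fold change was -5.01 (standard error 0.21), or 32.1-fold lower, and ranked 15 from the lowest among the 16059 genes tested. In bulk RNA, fewer cells with CDKN2A RNA and less of it per cell cannot be told apart. The direction held with library totals in place of TMM (-4.08) and with offsets for length and GC (-2.87). CDKN2A is a short gene, at 880 bases in the table, and short genes tended to be lower. Of 624 tested genes of like length and GC content, which had a median log2 fold change of -1.91, just 1 was lower than CDKN2A.

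CDKN2B encodes p15INK4b, an INK4 protein known as a mediator of the growth arrest caused by TGF-β. It was counted at 117, 85 and 120 in parental libraries and at 440, 344 and 305 in mutant libraries. In CPM the values were 7.77, 6.19 and 7.4 against 12, 12 and 11.1. All mutant libraries lay above all parental libraries, opposite to CDKN2A. Means were 7.12 ± 0.827 CPM (SD, n = 3) and 11.7 ± 0.506 CPM (SD, n = 3). On the log2 scale the change was 0.71 (standard error 0.18), which became 1.63 with library totals and turned to -0.38 with length and GC offsets. Among 2225 genes of like length and GC content, whose median was 1.52, 27.9% were lower than CDKN2B.

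MTAP encodes methylthioadenosine phosphorylase, the enzyme that starts methionine salvage, and is often deleted together with CDKN2A in tumours. Its estimated counts were 995, 610 and 866 in parental and 2214, 1973 and 1627 in p85β KR-AA libraries. On TMM-normalized sizes the values were 66.1, 44.4 and 53.4 CPM against 60.4, 68.7 and 59.3 CPM. The conditions overlapped, since parental replicate 1 lay among the mutant libraries. The log2 fold change was 0.20 (standard error 0.16), against 1.12 with library totals and -2.18 with length and GC offsets. At 7557 bases MTAP is the longest gene of the group, and 1103 genes of like length and GC content had a median log2 fold change of 2.56. Only 5.17% of these were lower than MTAP.

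Ratios of 2 counts within a library do not depend on how libraries are scaled, although they still carry any difference tied to gene length. The ratio of CDKN2A to CDKN2B counts was 6.46, 10.1 and 6.67 in parental libraries against 0.132, 0.118 and 0.184 in mutant libraries. CDKN2A was thus the more abundant of the pair in every parental library and the less abundant in every mutant library. The mean ratio was 7.75 ± 2.05 (SD, n = 3) against 0.144 ± 0.0345 (SD, n = 3), a 53.6-fold difference between the means. Relative to MTAP, CDKN2A counts went from ratios of 0.760, 1.41 and 0.924 to 0.0262, 0.0206 and 0.0344, a 38.1-fold difference. The ratio of CDKN2B to MTAP counts was 0.118, 0.139 and 0.139 in parental and 0.199, 0.174 and 0.188 in mutant libraries. These last values also did not overlap but lay close together. The ratios depend on gene length, as CDKN2A has 880 bases, CDKN2B 3853 and MTAP 7557. With length and GC offsets the log2 fold changes were -2.87 for CDKN2A, -2.18 for MTAP and -0.38 for CDKN2B. CDKN2A was then nearer to MTAP than MTAP was to CDKN2B. The gap between CDKN2A and MTAP seen in the ratios was thus much smaller with offsets, whereas CDKN2A still lay well below CDKN2B. No ratio was tested, as the genes were chosen on this contrast.

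Within 1000000 bases of CDKN2A the annotation listed 55 other genes of the table, of which 37 were at 0 in every library. Among these neighbours were 16 interferon genes, 14 of them at 0 in every library and the others at 5 counts or fewer. Only 3 neighbours had enough counts for the test, and 2 of these were called higher in p85β KR-AA cells, beside 28.6% of all genes tested. KLHL9, which encodes an adaptor of a cullin ubiquitin ligase, rose by 2.52 on the log2 scale (edgeR quasi-likelihood test, adjusted p = 1.3e-06, standard error 0.26) from 39, 66 and 54 to 834, 668 and 415 counts, but with offsets it was 0.48. ENSG00000265194, a lncRNA inside MTAP on the opposite strand, rose by 3.83 (edgeR, adjusted p = 1.0e-04, standard error 0.63), from at most 2 counts to between 24 and 44, and without strand its reads cannot be told apart from MTAP. FOCAD, a focal adhesion gene, stood at 1.02 on the log2 scale (edgeR, adjusted p = 7.8e-05, standard error 0.16), below the 3-fold limit. HACD4, the pseudogene TUBB8P1 and DMRTA1 reached 10 or more counts in a library but did not pass the filter, with at most 2 counts in any parental library. None of the tested neighbours was called lower, so without offsets CDKN2A was the only gene called lower among the 6 tested genes of the locus, CDKN2B and MTAP included. With offsets MTAP was called lower as well.

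**Figure D2:**
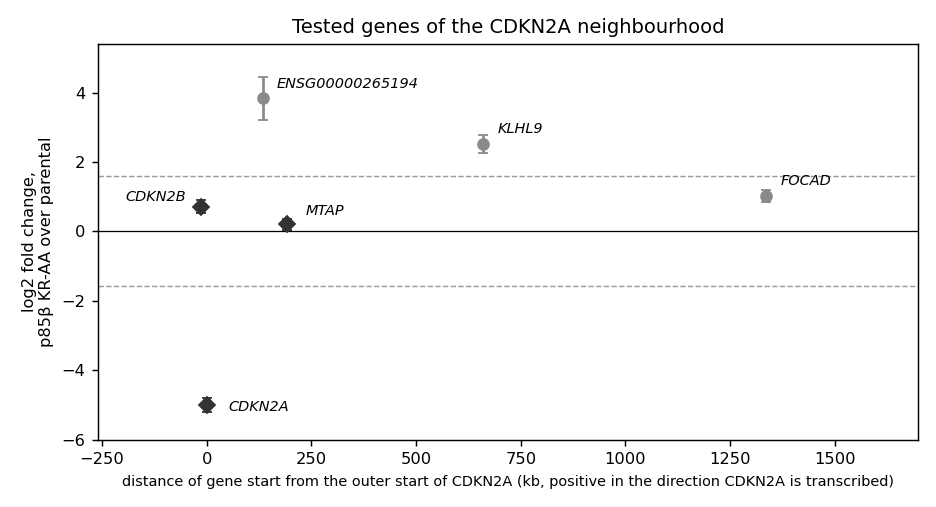
Log2 fold change (p85β KR-AA over parental, bars show the standard error) of the 6 tested genes at the CDKN2A locus against the distance of each gene's start from the outer start of CDKN2A, in kb. Diamonds are CDKN2A, CDKN2B and MTAP, circles are neighbours, and dashed lines mark a 3-fold change. CDKN2A stands at -5.01 while the starts of CDKN2B, 14 kb away, and MTAP, 193 kb away, stand at 0.71 and 0.20.

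The other INK4 genes lie on chromosomes 1 and 19. CDKN2C (chr1:51426417-51440306), which encodes p18INK4c, had 577, 602 and 713 counts in parental and 483, 344 and 328 in p85β KR-AA libraries. These corresponded to 38.3, 43.8 and 44 CPM against 13.2, 12 and 12 CPM, so the conditions did not overlap. The log2 fold change was -1.76 (standard error 0.15), a level 3.40-fold lower, and it shrank to -0.84 with library totals and -0.64 with offsets. CDKN2D (chr19:10677136-10679735), which encodes p19INK4d, had 1097, 1168 and 1107 counts in parental and 432, 341 and 344 in p85β KR-AA libraries. In CPM, the parental values of 72.9, 85.1 and 68.3 contrasted with mutant values of 11.8, 11.9 and 12.5, again without overlap and with little spread among the mutant libraries. Its log2 fold change was -2.64 (standard error 0.15), or 6.25-fold lower, and it was -1.71 with library totals. With length and GC offsets only -0.36 was left, and 25.2% of 711 genes of like length and GC content, whose median was -1.91, were lower than CDKN2D. For CDKN2C, 21.7% of 1859 such genes were lower.

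Of the CIP/KIP genes, CDKN1A encodes p21, which stops the cell cycle after DNA damage. CDKN1A (chr6:36644237-36655114) was the most abundant gene of the group, with 8280, 6815 and 7882 counts in parental and 9352, 7040 and 7702 in p85β KR-AA libraries. On TMM-normalized sizes, it reached 550, 496 and 486 CPM against 255, 245 and 281 CPM, without overlap. The log2 fold change was -0.97 (standard error 0.12), under the 3-fold limit, but with library totals it was -0.05 and the libraries overlapped, and with offsets it was 0.47. The direction given for CDKN1A thus depends on the scaling. Of 1879 genes of like length and GC content, 55.9% were lower than CDKN1A, which places it in the middle of such genes.

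CDKN1B encodes p27, a CIP/KIP protein whose level is set largely by ubiquitin-mediated turnover. CDKN1B (chr12:12838432-12875303) had 851, 1361 and 1173 counts in parental and 1764, 1556 and 1206 in p85β KR-AA libraries. On TMM-normalized sizes the values were 56.5, 99.1 and 72.4 CPM against 48.1, 54.2 and 43.9 CPM. The lowest parental library lay just above the highest mutant library, and the parental spread was the widest of the group relative to its mean (76.0 ± 21.5 CPM, SD, n = 3). The log2 fold change of -0.64 (standard error 0.19) was -0.53 with offsets but turned to 0.30 with library totals, where the conditions overlapped.

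CDKN1C encodes p57, an imprinted CIP/KIP gene expressed from the maternal copy. CDKN1C (chr11:2904443-2907005, minus strand) had 537, 602 and 685 counts in parental and 606, 377 and 431 in p85β KR-AA libraries. These gave 35.7, 43.8 and 42.3 CPM against 16.5, 13.1 and 15.7 CPM. The conditions did not overlap, and the log2 fold change was -1.42 (standard error 0.16), or -0.50 with library totals. It turned to 0.56 with offsets, and 56.6% of 1125 genes of like length and GC content were lower than CDKN1C.

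TMM and library totals differed by a constant for nearly every gene: scaling by totals raised the median of all genes tested by 0.92 on the log2 scale. Relative to the median gene of each scaling, CDKN2A was at -5.33 with TMM and -5.32 with library totals, CDKN2D at -2.96 and -2.95, CDKN2C at -2.08 and -2.08, CDKN1C at -1.74 and -1.74, CDKN1A at -1.29 and -1.29, and CDKN1B at -0.96 and -0.94. CDKN2B was at 0.39 with both and MTAP at -0.12 with both. All of the genes but CDKN2B thus lay below the median gene under both scalings, MTAP by less than its standard error of 0.16. With length and GC offsets, relative to that fit's median, CDKN1A (0.20) and CDKN1C (0.29) moved above it, CDKN2B moved below it (-0.65), and CDKN2A (-3.15) and MTAP (-2.45) stood farthest from it. With offsets, 2 of the 8 genes were called lower, CDKN2A and MTAP, and 0 higher, beside 6.55% called lower and 17.8% called higher of the 15902 genes tested in that fit. CDKN2A, CDKN2C and CDKN2D kept a negative fold change in all 12 alternatives.

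**Figure D3:**
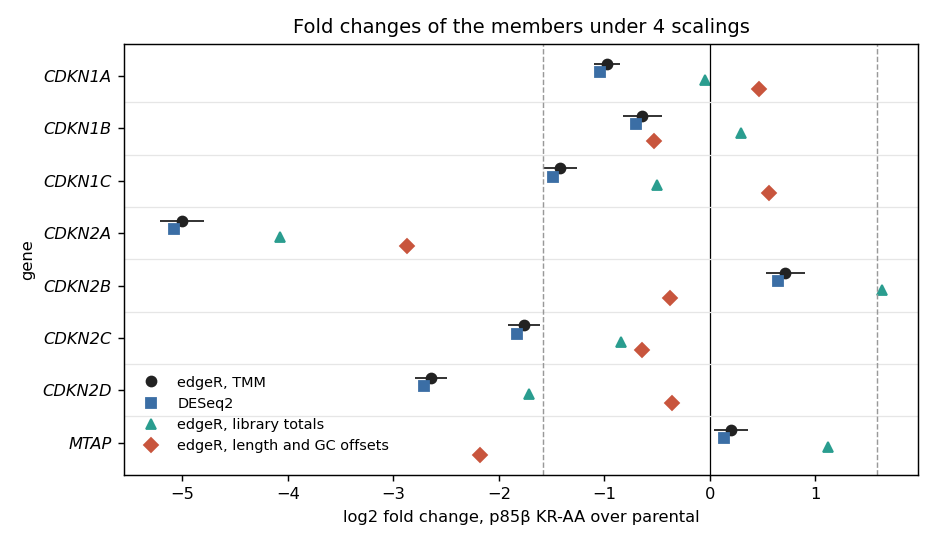
Log2 fold change (p85β KR-AA over parental) of the 8 genes with edgeR on TMM-normalized sizes (circles, bars show the standard error), DESeq2 (squares), edgeR on library totals (triangles) and edgeR with length and GC offsets (diamonds); dashed lines mark a 3-fold change. CDKN2A stays left of the dashed line throughout, from -5.08 to -2.87, whereas MTAP ranges from -2.18 to 1.12.

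Levels of different genes were compared per length, as TPM, counts per base of gene length scaled to the same sum in each library, computed from the deposited counts and lengths. In parental cells the order of mean TPM was CDKN1A (242), CDKN1B (83.3), CDKN2D (68.7), CDKN2A (60.7), CDKN1C (20.9), CDKN2C (14.4), MTAP (7.27) and CDKN2B (1.86). The ranges of CDKN1B and CDKN2D overlapped, and all other neighbours in this order were apart in all 3 libraries. In p85β KR-AA cells the order was CDKN1A (321), CDKN1B (141), CDKN2D (28.8), MTAP (21.6), CDKN1C (20.3), CDKN2C (11.0), CDKN2B (7.88) and CDKN2A (4.93). Here the ranges of MTAP and CDKN1C overlapped and the others did not. CDKN2A thus went from the fourth place to the last, while MTAP went from the seventh to the fourth. These changes of place still carry differences tied to gene length, as MTAP has 7557 bases and CDKN2A 880. With length and GC offsets both were called lower, MTAP at -2.18 and CDKN2A at -2.87, so the rise of MTAP was not seen there. The order of genes within a condition is the same on any scaling of the libraries, but TPM levels of a gene in the 2 conditions are not set against each other here, because the TPM of CDKN1A was higher in mutant libraries while its TMM-scaled CPM was lower.

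Shares within a family are also free of the scaling of libraries, but not of differences tied to gene length. CDKN2A made up 40.9%, 42.8% and 41.2% of the summed INK4 TPM in parental libraries but 8.86%, 8.13% and 11.1% in mutant libraries. CDKN2B went from 1.45%, 0.967% and 1.41% to 15.3%, 15.7% and 13.8%, and CDKN2C from 9.47%, 9.08% and 11.1% to 22.3%, 20.9% and 19.7%. CDKN2D took the largest share in both conditions, 47.2% ± 0.958 (SD, n = 3) in parental and 54.7% ± 1.07 (SD, n = 3) in mutant cells. The INK4 RNA of parental cells was thus mostly CDKN2D and CDKN2A, and that of mutant cells mostly CDKN2D, with the other 3 genes at more even shares. CDKN2B and CDKN2C are longer than CDKN2D (3853 and 2904 against 1086 bases), and with length and GC offsets the log2 fold changes of these 3 genes were alike (-0.38, -0.64 and -0.36), so the shift among them was not seen there, whereas CDKN2A stood at -2.87. The CIP/KIP family changed less: CDKN1A held 69.8% ± 6.18 (SD, n = 3) in parental and 66.5% ± 3.32 (SD, n = 3) in mutant cells, and CDKN1B 24.2% ± 5.78 (SD, n = 3) and 29.3% ± 3.58 (SD, n = 3), with overlapping libraries. CDKN1C was the smallest in both, with 5.39%, 6.15% and 6.56% in parental and 4.67%, 3.70% and 4.27% in mutant libraries, which did not overlap.

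**Figure D4:**
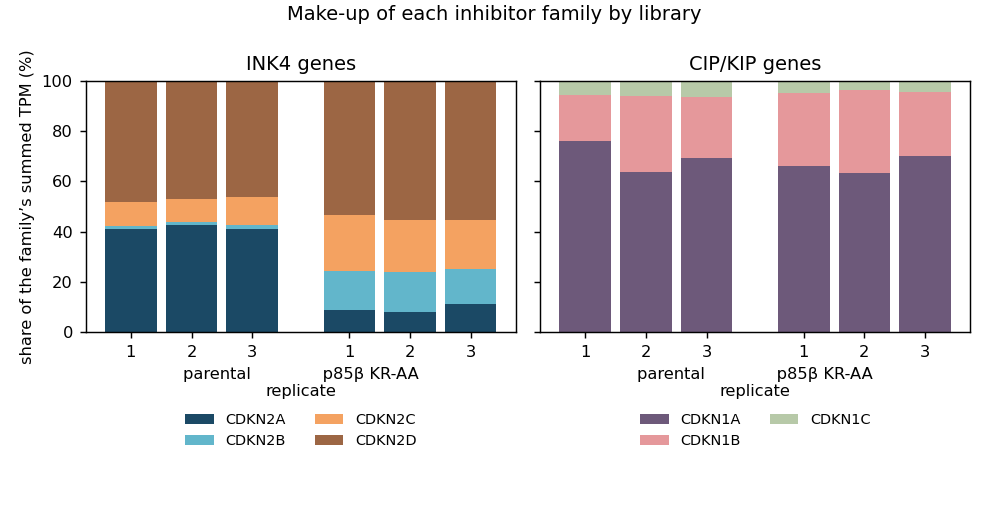
Share of each gene in the summed TPM of its family (%), per library, for the INK4 genes (left) and the CIP/KIP genes (right). The CDKN2A share drops from 41.7% on average in the 3 parental libraries to 9.37% in the 3 p85β KR-AA libraries, while CDKN1A stays the main CIP/KIP gene in all 6 libraries.

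By Euclidean distance between log2 CPM profiles, each centred on its mean over the 6 libraries, the tested genes closest to CDKN2A were NPW, RARRES2, WNT3A, TNNC1 and KRT7, at distances from 0.510 to 0.710. Their log2 fold changes lay between -5.66 and -4.17. They lie on chromosomes 16, 7, 1, 3 and 12, so none is on the chromosome of CDKN2A. The genes closest to CDKN1A were LEMD2, TSC22D4, GRB7, RBCK1 and IMPDH1, at distances from 0.0658 to 0.0747, far closer than any gene came to CDKN2A. With 2 conditions, such likeness mostly reflects a like fold change.

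The genes around the other members gave the local background. Their counts stand beside 28.6% called higher and 17.6% called lower of all genes tested, or 17.8% and 6.55% with offsets. Around CDKN2D, on chromosome 19, 66 neighbours within 1000000 bases were tested, of which 3 were called higher and 30 lower (median log2 fold change -1.37). Around CDKN1C, on chromosome 11, 2 of 25 were called higher and 12 lower (median -1.27). CDKN2D and CDKN1C thus stood among neighbours that were mostly lower as well, and with offsets the medians of both neighbourhoods were close to 0, at -0.01 and -0.06. Around CDKN1A 4 of 22 were called higher and 4 lower, around CDKN1B 5 of 20 higher and 0 lower, and around CDKN2C 4 of 8 higher and 0 lower. With offsets 0 of the 8 tested neighbours of CDKN2C were called in either direction (median 0.35) and CDKN2C itself was not called (-0.64), and its difference from its neighbours was not tested. A fixed list held genes in and around the imprinted 11p15 domain of CDKN1C, and whether each of them is imprinted was not checked. Of 9 tested, 1 was called higher and 6 lower, with a median of -1.74 beside 0.32 for all genes. KCNQ1OT1, the paternally expressed antisense RNA of the domain, rose by 3.35 (adjusted p = 5.6e-08, edgeR), although without strand its reads cannot be told apart from KCNQ1 introns. The genes TSSC4 (-3.35, adjusted p = 4.7e-09, edgeR) and PHLDA2 (-2.85, adjusted p = 6.0e-09, edgeR) fell the most in this list without offsets. With offsets 0 genes of the list were called lower and 1 higher, SLC22A18 (2.02), which stood at -0.01 without offsets. The median was then -0.30, and KCNQ1OT1 stood at 0.55, TSSC4 at -0.95 and PHLDA2 at -0.35.

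The partners and regulators of the inhibitors were read from fixed lists, which held 108 genes, 103 of them tested. Of these, 25 were called higher and 24 lower in p85β KR-AA cells, beside 28.6% and 17.6% of all genes tested. With length and GC offsets 7 were called higher and 5 lower, beside 17.8% and 6.55% of the genes tested in that fit. Of these 7 and 5, 5 and 4 had the same call without offsets. The counts of each list below stand beside the same shares. Without offsets, the genes called higher had a median length of 5139 bases and those called lower 2118 bases.

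Of the INK4 partners, 4 of 5 were tested, 1 called higher and 2 lower (median -1.28). CDK4 fell by 2.54 on the log2 scale (adjusted p = 8.8e-09, edgeR) and was also called lower with offsets (-1.73). CDK6 rose by 2.85 (adjusted p = 9.6e-08, edgeR), but stood at 0.09 with offsets. Among D-type cyclins, CCND3 fell by 2.30 (adjusted p = 1.2e-08, edgeR), while CCND1 (-0.27) was not called and CCND2 was not tested. With offsets CCND3 was at -1.05 without a call. Without offsets the targets of the INK4 proteins thus changed in opposite directions, CDK4 lower and CDK6 higher, and with offsets CDK4 alone was called. Of 7 tested CIP/KIP partners, 0 were called higher and 1 lower (median -0.0020): CCNE1, a cyclin of CDK2, fell by 1.92 (adjusted p = 9.6e-08, edgeR), and CDK2 stood at -0.24 without a call. With offsets CCNE1 was at -1.19 without a call.

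Of 13 RB family and E2F or DP genes, 6 were called higher and 1 lower (median 1.08), and 0 were called with offsets. RBL2 (2.93, adjusted p = 2.9e-08), RBL1 (2.69, adjusted p = 8.3e-07) and RB1 (2.48, adjusted p = 1.3e-06) rose by edgeR's test, and E2F1, which drives entry into S phase, fell by 2.01 (adjusted p = 5.2e-08, edgeR). Of 12 ubiquitin ligase genes that turn over CIP/KIP proteins and cyclins, 2 were called higher, CUL4B (2.41) and DTL (2.36), and 1 lower, DDB1 (-1.87), while SKP2, the F-box protein for p27, stood at 0.08 without a call. With offsets DDB1 (-2.17) kept its call, and CUL4B (1.14) and DTL (0.87) did not. Of 7 genes in the list of FOXO factors and their kinases, 3 were called higher and 2 lower (median -0.88). FOXO3, an activator of CDKN1B, rose by 2.85 (adjusted p = 1.4e-08, edgeR), whereas FOXO6 (-2.37) and AKT1 (-1.75) fell. With offsets 0 genes of this list were called lower, the median was 0.19, FOXO6 turned to 0.19, and AKT1 stood at -0.27 and FOXO3 at 1.57 without a call.

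Of 22 tested regulators of the CDKN2A and CDKN2B locus, 6 were called higher and 3 lower (median 0.69). The T-box repressor TBX2, which is known to repress the locus, rose by 5.47 (adjusted p = 8.7e-09, edgeR), from 3, 7 and 4 to 509, 409 and 388 counts, and ETS1, known as an activator of p16INK4a, rose by 3.66 (adjusted p = 6.8e-09, edgeR). Both were also called higher with offsets (6.68 and 2.09). Of the Polycomb genes, EZH1 (2.65), SUZ12 (2.15), RNF2 (2.12) and BMI1 (1.83, adjusted p = 0.0019, edgeR) rose, EZH2 stood at 0.73 without a call, and RING1 (-2.75), CBX8 (-1.75) and CBX7 (-1.74) fell. With offsets EZH1 (2.20) kept its call, whereas SUZ12 (0.40), RNF2 (0.82), BMI1 (0.51), RING1 (-0.79), CBX8 (-1.03) and CBX7 (-0.94) did not. RBBP4, at 0.69 without a call, was called lower with offsets (-1.60). Of 10 tested genes of the ARF axis and regulators of CDKN1A, 4 were called higher and 2 lower (median 1.09), with MDM4 (3.23) and MDM2 (2.95) highest and TP73 (-1.88) and ZBTB17 (-1.88) lowest. With offsets MDM2 was at 0.14, MDM4 at 0.79, TP73 at -1.26 and ZBTB17 at -0.36.

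A list of 14 genes around MTAP held genes of methionine salvage and polyamine synthesis and, beside these, MTR, MAT2A, MAT2B, AHCY, PRMT5 and WDR77. Of all 14, 2 were called higher, both from the genes named beside, and 4 lower (median -0.36). The methionine synthase gene MTR rose by 4.0 (adjusted p = 7.5e-09, edgeR) and MAT2A, which makes S-adenosylmethionine, by 1.66 (adjusted p = 1.1e-07, edgeR), whereas AHCY (-2.31) and SRM (-2.14) fell. With offsets MTR (1.81) kept its call, MAT2A (1.13) and AHCY (-1.10) did not, and SRM turned to 0.22. ADI1 and WDR77 were called lower both without offsets (-1.68 and -1.62) and with them (-2.19 and -1.65). PRMT5, known to be inhibited by the substrate of MTAP, stood at -1.49 without a call. Of 5 other genes whose names refer to a CDK or to a CDK inhibitor, 0 were called higher and 2 lower, CDK2AP2 (-2.50) and CDKN2AIPNL (-2.0). CDKN3 stood at -1.28 without a call. With offsets 0 of these 5 were called, with CDK2AP2 at -0.15 and CDKN2AIPNL at -1.51.

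**Figure D5:**
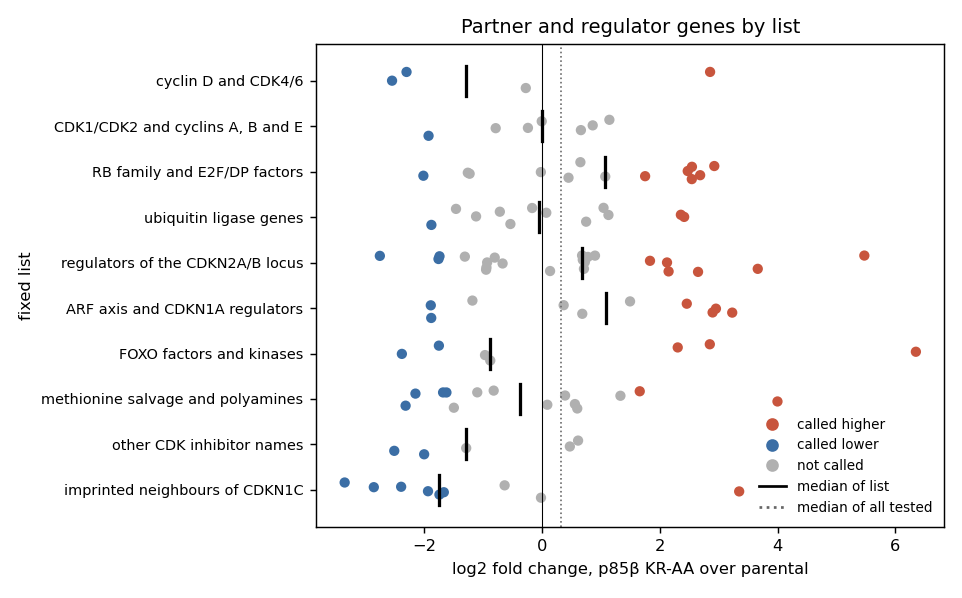
Log2 fold change (p85β KR-AA over parental) of the 103 tested genes of 10 fixed lists, 1 point per gene, coloured by call, with a bar at the median of each list and a dotted line at the median of all genes tested (0.32). The medians run from -1.74 for the list labelled imprinted neighbours of CDKN1C, not all of them checked for imprinting, to 1.09 for the ARF axis. Most lists hold genes on both sides of 0.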

How the data were processed

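RNA-seq libraries of 3 parental and 3 p85β KR-AA samples were grouped by their titles. The authors trimmed paired-end reads with SeqPrep and Sickle and deposited estimated counts per Ensembl gene, not normalized, with a length per gene. The submitters' processing notes name HISAT2 2.1.0, RSEM 1.3.1, DESeq2 1.24.0 and hg18 without roles. Estimated counts were rounded to whole numbers and tested by the quasi-likelihood F test of edgeR 4.0.16 (R 4.3.3) on TMM-normalized sizes, after filterByExpr (minimum count 10, minimum total 15), with Benjamini-Hochberg adjustment. A gene was called at a fold change of 3 or more with adjusted p below 0.01, the limits in the study's methods, which name no test. Each standard error is the size of the log2 fold change over the square root of F. Positions and symbols came from GENCODE release 44 lifted to GRCh37, as the build behind the counts is not known, and GC content from each gene's longest transcript; 56745 of the 58884 identifiers matched. Promoter windows came from RefSeq (GRCh38.p14). Genes of like length and GC content lay within 0.5 on the log2 length scale and 5 percentage points of GC. CPM profiles had 0.5 added before the log.

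The members and the lists were chosen with earlier results of these data known. Named were all 8 genes, up to 2 called genes at either end of each list, set partners such as CDK4 and EZH2 whatever their values, neighbours of CDKN2A with 10 or more counts in a library, and the 5 nearest profiles of CDKN2A and CDKN1A. Others were named by value, and some genes of the lists are counted but not reported here. Alternatives were DESeq2 1.42.0, library totals, no filter, 10 counts in every library, a replicate block, each library left out, a fold of 2 with adjusted p below 0.05, and per-library offsets (robust splines, 5 degrees of freedom each for length and GC content), which remove any relation of counts with either property, whatever its source. RPKM on TMM sizes was the alternative to TPM. On simulated counts for the comparison of mutant against parental, edgeR recovered 94.7% of genes changed by 2 and 100% of those changed by 3 on the log2 scale among 15697 genes, and called 0 unchanged genes. Just 95 and 97 tested genes were changed by these sizes in the simulation, with no relation to gene length. The data differ in both respects, so the simulation checks the code and does not give the error rate of the calls here. Replicate libraries differed by 4.29 to 39.1 times the sampling noise (chi-square per degree of freedom), so none was a copy of another.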

Additional observations from a re-analysis of the deposited data

How the results depend on the processing

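Calls over all genes tested, 4597 higher and 2825 lower, were 7052 and 973 with library totals, 2832 and 1041 with length and GC offsets, 2898 higher with at least 10 counts in every library, and 4289 lower with a fold of 2 and an adjusted p below 0.05. In the pathway lists, the 25 higher and 24 lower calls were 41 and 4 with library totals, and 7 and 5 with offsets. Library totals raise every log2 fold change by a near constant; why the offsets move calls was not tested. With each library left out in turn, calls were 4404 to 4783 higher and 2774 to 2992 lower over all genes, and 24 to 27 higher and 23 to 24 lower in the lists. Of 260 counts of calls in single lists under the alternatives, 218 were within 1.5 times the count reported and 42 were not. With offsets the fold changes of CDKN1A (0.47), CDKN1C (0.56), CDKN2B (-0.38) and MTAP (-2.18) turned in sign, and with library totals that of CDKN1B did (0.30); the cause was not tested. Leaving out any library kept the sign of all 8 log2 fold changes. CDKN2A ranged from -5.15 to -4.90 in these fits, CDKN2D from -2.75 to -2.58 and CDKN2C from -1.84 to -1.73. CDKN1B (-0.83 to -0.43) and MTAP (0.04 to 0.35) moved the most. RPKM on TMM sizes kept the order of the 8 genes in both conditions but gave lower levels than TPM in mutant libraries (124 against 321 for CDKN1A).

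The replicate block gave 4626 higher and 2827 lower calls over all genes and 25 and 24 in the lists, and changed no sign among the 8 genes (CDKN2D -2.64, MTAP 0.21). Deviations from the group means correlated at -0.20, 0.18 and -0.06 between same-numbered libraries, and not every library correlated best with its own number. A pairing by number was thus not seen, but 3 libraries per condition are too few to exclude one. Without the filter, and with the block, edgeR's prior degrees of freedom were infinite, so no p-value of a single gene is taken from them. At the lowest depth, 20301396 counts, the 3-count limit and the 2.30 to 9 counts of CDKN2B-AS1 set what could be seen of the antisense RNA.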

Other observations

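Within the parental group, and chosen after the values were seen, replicate 2 had the highest CPM of the 3 libraries for CDKN1B, CDKN1C, CDKN2A and CDKN2D, which are 880 to 1930 bases long, and the lowest for CDKN2B and MTAP, at 3853 and 7557 bases. Its log2 CPM differed from the mean of replicates 1 and 3 by 0.63 for CDKN1B and by -0.42 for MTAP. Over all genes tested, the median of the same difference was 0.23 for genes of up to 1000 bases and -0.14 for genes longer than 4000 bases. Shorter genes were thus relatively higher in replicate 2 than in the other parental libraries, as they were in parental against mutant cells, where the median log2 fold change was -1.12 for genes of up to 1000 bases. The part of gene length in the spread of these genes was not tested.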
